A study of Mus musculus with 36 samples.

Results

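The regions described here are the start windows of mouse protein-coding genes, that is 1 kb on each side of the 5′ end of each gene on the autosomes of GRCm38 as RefSeq annotates them. A window could be placed for 16457 of 20665 such genes, since the table used gave no strand for the other 4208, which were not analysed here. The windows lay on 18 chromosomes, none of them on chromosome 18, with 8206 on the plus strand and 8251 on the minus strand, and together they covered 1.30% of the autosomes. In 2064 of them the start of another gene lay within 2 kb, so neighbouring windows shared positions. The annotated 5′ end is a single start per gene, and alternative starts of the same gene were not separated.

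Single-strand breaks (SSBs) and apurinic or apyrimidinic (AP) sites were mapped to single nucleotides in DNA of male C57BL/6J mice aged 24 months, as part of a study of damage profiles as predictors of age. There were 6 tissues (bone marrow, brain, heart, liver, peripheral blood mononuclear cells or PBMCs, and sperm) with 2 animals per tissue, and each DNA sample was used for both assays, giving 12 libraries per assay and 24 in all. Red cells had been lysed out of the bone marrow, PBMCs had been taken from a Ficoll gradient, sperm were the motile cells of the epididymal tail, and the solid organs were ground whole, so they hold all cell types of the organ. Sperm DNA was made with a different kit from that of the other tissues, so tissue and kit cannot be told apart for sperm. No treatment, transgene or mutation was part of these samples. The 12 DNA samples of an assay came from 2 animals, so the p-values below measure the spread between these tissue samples and not between many mice, and part of that spread may be technical. The sign-flip tests took the 12 DNA samples as independent. Where the 2 samples of a tissue lay close together, as for SSB enrichment, those p-values can be too small.

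The SSB libraries held 225011 to 1041983 positions (median 410489) and the AP libraries 460719 to 963258 (median 739741). Summed over windows, 5967 to 36454 SSB positions and 10224 to 25614 AP positions of a library fell in start windows, a share of 3.35% ± 0.716 (SD, n = 12) for SSBs and 2.46% ± 0.202 for AP sites. A position in overlapping windows was counted in each of them, so these numbers and shares are somewhat above those of distinct positions. Over all 12 libraries a window held a median of 11 SSB and 13 AP positions, with at most 100 and 132, while 396 windows held no SSB position and 320 no AP position. A single window is therefore thinly covered, and most values below are taken over all windows or over classes of windows.

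A transcription start is where RNA polymerase II begins to copy a gene, and the DNA just upstream, the promoter, binds the general factors that place the polymerase. Many mammalian promoters lie in CpG islands, stretches rich in C followed by G that are mostly unmethylated and free of nucleosomes in many tissues, and a smaller group carries a TATA box a short way upstream. An SSB is an interruption of one strand of the DNA. An AP site is a sugar that has lost its base, by spontaneous loss (mostly of the purines A and G) or through a DNA glycosylase during base excision repair, and its cleavage gives an SSB as the next intermediate.

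The sequences of 5 starts are shown to give an idea of what the positions look like at single-base level. They were taken from RefSeq (GRCm38.p6), read 5′ to 3′ on the gene's strand up to the last base before the annotated 5′ end, and capitals mark each base at which a position was recorded on either strand in any library of the assay named. Rab5b and Phf23 are shown because their windows differed between the assays, Hjurp because its window held most SSB positions of all, Ugt1a1 because its window was among the 5 highest of both assays, and Add3 because a single nucleotide in it recurred across libraries. Rab5b is shown at chr10:128696285-128696518 (minus strand, 10 SSB and 3 AP positions), Phf23 at chr11:69995516-69995765 (plus strand, 6 SSB positions), Hjurp at chr1:88277645-88277829 (minus strand, 14 SSB and 3 AP positions), Ugt1a1 at chr1:88211709-88211958 (plus strand, 5 SSB and 18 AP positions) and Add3 at chr19:53140193-53140442 (plus strand, 9 SSB positions at 4 nucleotides).
Rab5b, SSB: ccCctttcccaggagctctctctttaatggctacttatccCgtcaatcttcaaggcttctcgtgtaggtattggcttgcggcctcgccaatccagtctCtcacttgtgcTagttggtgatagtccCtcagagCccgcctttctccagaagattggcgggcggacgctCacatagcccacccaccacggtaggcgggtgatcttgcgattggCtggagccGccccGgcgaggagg
Rab5b, AP: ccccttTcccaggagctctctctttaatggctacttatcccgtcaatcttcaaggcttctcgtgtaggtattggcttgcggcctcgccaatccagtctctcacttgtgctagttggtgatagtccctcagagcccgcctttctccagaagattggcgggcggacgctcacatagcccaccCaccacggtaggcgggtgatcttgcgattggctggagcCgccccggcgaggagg
Phf23, SSB: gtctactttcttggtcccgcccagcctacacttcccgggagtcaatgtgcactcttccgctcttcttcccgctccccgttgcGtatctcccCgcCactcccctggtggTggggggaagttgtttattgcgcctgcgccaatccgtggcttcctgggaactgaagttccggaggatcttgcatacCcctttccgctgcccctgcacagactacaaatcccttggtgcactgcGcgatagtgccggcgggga
Hjurp, SSB: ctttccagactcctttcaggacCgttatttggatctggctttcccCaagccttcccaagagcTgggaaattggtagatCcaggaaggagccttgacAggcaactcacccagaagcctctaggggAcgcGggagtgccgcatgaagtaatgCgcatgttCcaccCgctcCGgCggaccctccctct
Hjurp, AP: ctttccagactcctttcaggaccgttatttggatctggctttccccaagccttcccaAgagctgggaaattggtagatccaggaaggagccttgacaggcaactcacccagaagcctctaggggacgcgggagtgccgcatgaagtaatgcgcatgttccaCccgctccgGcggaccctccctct
Ugt1a1, SSB: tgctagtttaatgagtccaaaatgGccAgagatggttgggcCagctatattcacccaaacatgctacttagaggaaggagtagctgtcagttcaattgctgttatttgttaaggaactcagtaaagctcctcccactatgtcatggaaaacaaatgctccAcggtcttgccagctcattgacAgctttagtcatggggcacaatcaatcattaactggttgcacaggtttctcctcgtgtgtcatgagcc
Ugt1a1, AP: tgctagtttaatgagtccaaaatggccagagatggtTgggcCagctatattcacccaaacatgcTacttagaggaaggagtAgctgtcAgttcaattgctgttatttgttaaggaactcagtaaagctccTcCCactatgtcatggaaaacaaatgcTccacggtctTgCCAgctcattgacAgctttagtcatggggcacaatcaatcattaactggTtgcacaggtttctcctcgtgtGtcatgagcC
Add3, SSB: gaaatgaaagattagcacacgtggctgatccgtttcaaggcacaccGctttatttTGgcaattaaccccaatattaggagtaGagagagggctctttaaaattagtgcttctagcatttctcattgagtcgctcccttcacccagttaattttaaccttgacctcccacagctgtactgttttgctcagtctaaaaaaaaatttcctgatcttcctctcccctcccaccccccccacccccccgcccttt

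Start windows held more of both lesions than DNA farther from the genes. The measure was the enrichment, the density of positions in the windows divided by the density 90 to 110 kb from the same starts in the same library. SSB enrichment was 2.01 ± 0.314 (SD, n = 12), between 1.61 and 2.62, and AP enrichment was 1.55 ± 0.0738, between 1.42 and 1.64. The DNA used for scaling was itself above the autosomal mean, 1.23 times for SSBs and 1.18 times for AP sites, so against the autosomal mean the enrichment was larger, 2.49 for SSBs and 1.83 for AP sites.

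SSBs were more concentrated at starts than AP sites in each of the 12 DNA samples. The difference of their log2 enrichments, SSB minus AP of the same DNA sample, was 0.37 ± 0.22 (SD, n = 12) and was above 0 in 12 of 12 samples (two-sided exact sign-flip test, p = 0.000488, the smallest value 12 samples allow, and 0.000781 after Benjamini-Hochberg adjustment over the 16 exact tests made on these windows). The DNA samples differed in its size. It was 0.61 ± 0.08 in bone marrow, 0.55 ± 0.0034 in heart, 0.49 ± 0.09 in liver and 0.33 ± 0.04 in brain, but 0.11 ± 0.07 in sperm and 0.10 ± 0.02 in PBMCs (SD, n = 2 each). Tissue accounted for 96.0% of the variance of this difference (exact permutation test over 10395 pairings of the libraries, p = 0.00279, adjusted p = 0.00372).

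The SSB enrichment of starts differed between tissues and the replicates lay close together. Bone marrow was highest, with 2.62 and 2.36 in its 2 libraries. Heart had 2.19 and 2.13, liver 2.08 and 2.15, and brain 2.06 and 1.94. Sperm had 1.70 and 1.66, and PBMCs were lowest with 1.61 and 1.65. These values fall into 3 ranges that do not touch, namely bone marrow, then heart, liver and brain, then sperm and PBMCs. Within the middle range heart and liver overlapped and brain lay below both. Within the lowest range both sperm libraries lay above both PBMC libraries, by less than 0.1. Tissue accounted for 96.9% of the variance of SSB enrichment (exact permutation test, p = 0.000289, adjusted p = 0.000781, where the smallest p the pairings allow is 9.62e-05). The SSB libraries of sperm and PBMCs were among the shallower ones, with 225011 to 374964 positions, and so was the second bone marrow library (236000). With every library thinned to 225011 positions the share of variance was 96.1% (exact permutation test, p = 9.62e-05), and without sperm it was 96.0% (exact permutation test, p = 0.00212). In bulk tissue, lesions of a few cell types and lesions shared by all cells cannot be told apart.

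AP enrichment showed no such order. The AP libraries gave 1.64 and 1.61 in bone marrow, 1.61 and 1.57 in brain, 1.63 and 1.49 in sperm, 1.49 and 1.55 in PBMCs, 1.42 and 1.60 in liver, and 1.49 and 1.45 in heart. The 2 liver libraries and the 2 sperm libraries spanned most of the range seen over all tissues. Tissue accounted for 51.9% of the variance, which did not pass the exact permutation test (p = 0.383, adjusted p = 0.383). Of the tissues, PBMCs were lowest for SSBs and in the middle for AP sites.

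**Figure D1:**
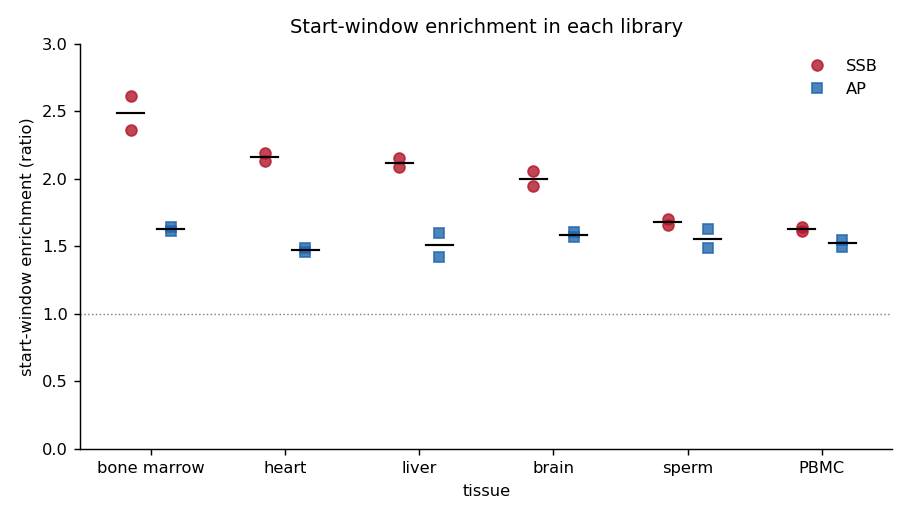
Enrichment of positions in start windows over DNA 90 to 110 kb away (y axis, ratio) for each of the 24 libraries, by tissue (x axis) and assay. Each point is 1 library and each short line the mean of 2. SSB points run from 1.61 in PBMCs to 2.62 in bone marrow with replicates close together, whereas the AP points of all tissues lie between 1.42 and 1.64.

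In steps of 100 bp, SSBs rose to a peak at the start itself in bone marrow, heart, liver and brain, and AP sites rose to a broad, low plateau. Averaged over 12 libraries, the SSB density was 2.85 ± 0.945 times that far away in the 100 bp before the start and 2.90 ± 0.877 in the 100 bp after it, dropped to 2.35 ± 0.424 from 100 to 200 bp and was 2.58 ± 0.528 from 200 to 300 bp. The large SDs come with the differences between tissues. In bone marrow the first 100 bp of the gene reached 4.90 and 4.04 in the 2 libraries, fell to 3.11 and 2.90 in the next 100 bp, and stood at 3.70 and 3.06 from 200 to 300 bp. In heart the 100 bp before the start held 3.33 and 3.17, in liver 2.96 and 3.28, and in brain 2.95 and 2.63. In PBMCs the same step held 1.74 and 1.78, and in sperm 1.88 and 1.81. The highest step lay within 100 bp of the start in 9 of the 12 SSB libraries, and the 3 exceptions were both PBMC libraries (200 to 300 bp into the gene) and 1 sperm library (300 to 400 bp).

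The sharpness of the peak can be given as the density from 200 bp before to 100 bp after the start divided by that from 300 to 1000 bp into the gene. This ratio was 1.79 and 1.60 in bone marrow, between 1.26 and 1.40 in heart, liver and brain, and between 1.02 and 1.05 in PBMCs and sperm. The last 2 tissues thus had SSBs at starts at nearly the density of the first part of the gene, without a separate peak. For AP sites the ratio lay between 1.02 and 1.12 in all 12 libraries, and the highest 100 bp step of the averaged profile, 1.87 ± 0.164, was the first of the gene.

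**Figure D2:**
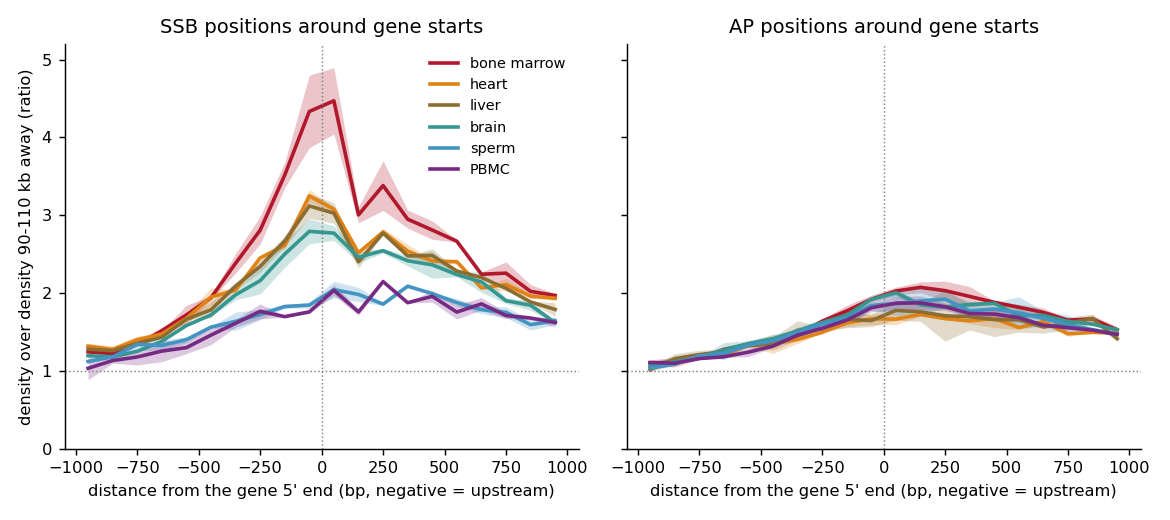
Density of positions in 100 bp steps from 1000 bp upstream to 1000 bp downstream of the 5′ end (x axis, bp), relative to 90 to 110 kb away (y axis, ratio), by tissue and assay; lines are means of 2 libraries and shaded bands span them. Bone marrow SSBs reach 4.90 and 4.04 in the 2 libraries just after the start, PBMC and sperm SSBs stay near 2, and AP sites form a low plateau in every tissue.

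Both lesions were also more frequent on the gene side of the start than on the upstream side. The log2 ratio of positions downstream over upstream was 0.32 ± 0.03 for SSBs and 0.31 ± 0.06 for AP sites (SD, n = 12), above 0 in 12 of 12 libraries of each assay (two-sided exact sign-flip test, p = 0.000488, adjusted p = 0.000781 for each). Beyond the windows the SSB density was 1.56 from 1 to 1.5 kb into the gene and still 1.12 from 4.5 to 5 kb, while upstream it was 1.10 from 1.5 to 1 kb before the start and 0.938 from 5 to 4.5 kb before it. AP sites behaved alike, with 1.39, 1.12, 1.04 and 0.908 at the same distances. Where starts sit close together the ratio was near 0. In the 2064 windows with another start within 2 kb it was 0.01 ± 0.09 (SSBs) and 0.02 ± 0.03 (AP sites). A position shared by 2 windows was counted in each, and it can be downstream of 1 start and upstream of the other. That counting draws the ratio toward 0, so its value there says little about close starts. Windows with another start within 2 kb had higher enrichment of both lesions, 2.55 ± 0.603 for SSBs and 1.70 ± 0.144 for AP sites, against 1.93 ± 0.265 and 1.52 ± 0.0634 where no other start was within 2 kb. The former can also hold positions around the neighbouring start.

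The strands carried unequal numbers of positions, and the assays differed in which strand had more. The gene strand is the one that reads like the RNA (non-template), and the strand ratio is the log2 of positions on the gene strand over the other strand, minus the same ratio 90 to 110 kb away. Downstream of the start SSBs were more frequent on the gene strand, by 0.24 ± 0.07 (SD, n = 12) in 12 of 12 libraries (exact sign-flip test, p = 0.000488, adjusted p = 0.000781). AP sites downstream were less frequent on the gene strand, with -0.12 ± 0.08 and 1 library of 12 above 0 (exact sign-flip test, p = 0.000977, adjusted p = 0.00142), the exception being 1 sperm library. Upstream of the start the signs were turned around. SSBs there had a ratio of -0.09 ± 0.05 with 0 of 12 libraries above 0 (exact sign-flip test, p = 0.000488, adjusted p = 0.000781). AP sites upstream had 0.05 ± 0.09, above 0 in 9 of 12 libraries (exact sign-flip test, p = 0.0366, adjusted p = 0.0419), a call that was lost on leaving out any of 7 of the 12 libraries, with p up to 0.0732.

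The strand ratio changed sign within the SSB profile close to the start. From 1000 to 200 bp upstream the gene strand was the lower one in every 100 bp step, with mean log2 ratios between -0.26 and -0.05. In the 200 bp before the start it was the higher one, with 0.16 and 0.17, and in the first 100 bp of the gene it was lower again, with -0.20. In all 9 steps from 100 to 1000 bp it was higher in 12 of 12 libraries, by 0.15 to 0.39. For AP sites the gene strand was higher from 300 bp upstream to the start, by 0.13 to 0.20, and lower from 200 to 600 bp into the gene, with ratios between -0.27 and -0.13.

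**Figure D3:**
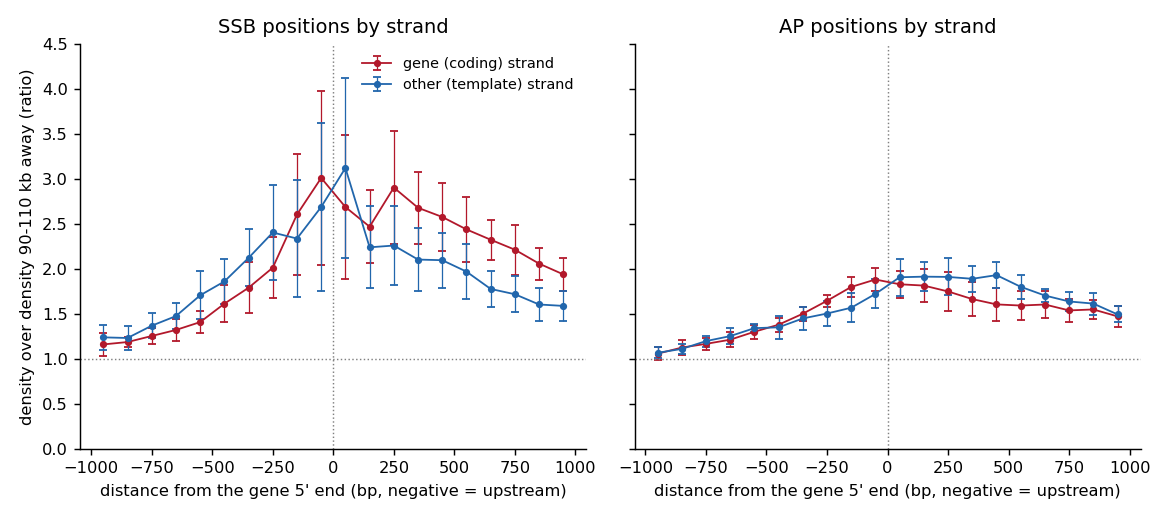
Density of SSB and AP positions on the gene strand and on the other strand in 100 bp steps around the 5′ end (x axis, bp), relative to 90 to 110 kb away (y axis, ratio). Points are means and bars SDs over 12 libraries. From 100 bp into the gene onward the gene strand holds more SSBs than the other strand, and from 200 to 600 bp it holds fewer AP sites.

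Base composition differs between the strands near starts, so the strand ratio was also set beside what the sequence alone gives. For the 300 bases around the start with RefSeq sequence, each library's rate per dinucleotide was applied to the dinucleotides of each strand. In the 250 bases upstream the composition gave a log2 ratio of -0.02 for SSBs and 0.002 for AP sites, where 0.12 ± 0.15 and 0.16 ± 0.17 were observed. In the first 50 bases of the gene it gave -0.004 and 0.06, where -0.26 ± 0.27 and -0.05 ± 0.19 were observed. In the first 50 bases the AP value from composition was of similar size to the observed one and of opposite sign. The rest of the window was not tested because its sequence was not used here.

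The base at the recorded nucleotide differed strongly between the assays at the same starts. Within the 14217 promoter sequences that lay within 500 bp of a 5′ end (300 bases each, 22.0% A or T each and 28.0% C or G each over both strands) there were 35657 SSB and 33180 AP positions. At the recorded nucleotide, read on the strand of the lesion, 38.2% of SSBs had C, 36.4% had G, 19.96% had T and 5.40% had A. For AP sites 37.3% had G, 36.8% had A, 16.8% had C and 9.18% had T, so purines made up most of the recorded AP nucleotides. Whether the recorded nucleotide is the lost base is not given in the sources used here. SSBs had less A than AP sites in all 12 DNA samples, with a log2 ratio of -2.79 ± 0.22 (SD, n = 12), more C in 12 of 12, by 1.18 ± 0.12, and more T in 12 of 12, by 1.11 ± 0.35 (two-sided exact sign-flip test, p = 0.000488, adjusted p = 0.000781 for each). G was not distinguished, with -0.04 ± 0.14 (exact sign-flip test, p = 0.373, adjusted p = 0.383).

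The neighbouring bases were selective as well. The base before the recorded SSB was C in 55.5% of cases and A in 4.20%. For AP sites it was C in 40.5%, G in 35.1%, T in 14.2% and A in 10.1%. For A, C and T these shares lay closer to those at the recorded SSB nucleotide than the AP shares at the recorded nucleotide did. Whether the 2 assays record the same place relative to the lesion was not tested, so the base contrasts hold for recorded nucleotides only. In AP sites the base 2 places before the recorded one was C in 53.9%, G in 36.0%, T in 6.30% and A in 3.83%. The base just before the SSB had G in 25.5% and T in 14.8%, so C and A were alike there, G and T less so. The base 3 places before the AP nucleotide was C in 40.9%, G in 31.5%, T in 14.0% and A in 13.7%. That 2 places before the SSB was C in 41.7%, G in 33.9%, A in 12.8% and T in 11.6%. The assays were not tested with 1 of them moved by 1 base. Counted per dinucleotide present (the base before and the recorded base), SSBs were 3.21 ± 0.682 times their mean rate at CG and 2.48 ± 0.352 times at CC, and 0.0122 times at AA. AP sites were 2.97 ± 0.219 times at CA, 2.18 ± 0.226 times at CG and 1.68 times at GA, and 0.134 times at TT. Both profiles were thus high at CG, the dinucleotide that defines CpG islands.

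Relative to the DNA 90 to 110 kb away, CpG-rich starts had more SSBs than CpG-poor starts in bone marrow, heart, liver and brain. They had fewer AP sites in all tissues. A promoter was called CpG-rich with a CpG observed over expected ratio of at least 0.75 and a G plus C content of at least 55%, and CpG-poor with a ratio below 0.48, which gave 4432 CpG-rich (31.2% of 14217), 3708 intermediate and 6077 CpG-poor windows. SSB enrichment was 2.26 ± 0.549 at CpG-rich, 2.28 ± 0.431 at intermediate and 1.76 ± 0.0627 at CpG-poor starts (SD, n = 12). The log2 ratio of CpG-rich to CpG-poor was 0.32 ± 0.30, above 0 in 9 of 12 libraries (exact sign-flip test, p = 0.00635, adjusted p = 0.00781). Its tissue means were 0.76 in bone marrow, 0.48 in heart, 0.43 in liver, 0.36 in brain, 0.02 in sperm and -0.10 in PBMCs. The 2 libraries of a tissue were alike, so this p-value can be too small, and a test with tissues as units was not made. AP enrichment was 1.46 ± 0.118 at CpG-rich, 1.62 ± 0.101 at intermediate and 1.70 ± 0.0483 at CpG-poor starts, with a log2 ratio of -0.22 ± 0.10 and 0 of 12 libraries above 0 (exact sign-flip test, p = 0.000488, adjusted p = 0.000781). Against the autosomal mean the SSB ratio was 0.77 (exact sign-flip test, p = 0.000488), and the sign for AP sites depended on this scaling. Far DNA around CpG-rich starts held 1.33 times the autosomal mean of AP sites and that around CpG-poor starts 0.991 times, and against the autosomal mean the AP ratio was 0.20 in favour of CpG-rich starts (exact sign-flip test, p = 0.000488).

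The tissues lay much farther apart at CpG-rich than at CpG-poor starts. At CpG-rich starts SSB enrichment was 3.37 and 2.85 in the 2 bone marrow libraries, 2.55 and 2.45 in heart, 2.37 and 2.46 in liver, 2.36 and 2.17 in brain, 1.77 and 1.63 in sperm, and 1.57 and 1.61 in PBMCs. At intermediate starts the tissue means ran from 1.76 in PBMCs to 2.93 in bone marrow. At CpG-poor starts the 12 libraries lay between 1.67 and 1.87, where the second bone marrow library lay below 1 heart and 1 liver library, and those of sperm and PBMCs below the others. The tissue difference of the CpG contrast was not tested separately. In PBMCs the CpG-rich mean, 1.59, was below the CpG-poor mean, 1.70, and in sperm they were 1.70 and 1.68.

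The shape of the profile differed by CpG class as well. SSBs at CpG-rich starts were at 3.38 ± 1.56 in the 100 bp before the start and 2.31 from 100 to 200 bp after it, and at CpG-poor starts the same steps held 2.27 and 2.29. At intermediate starts the 100 bp before the start held 3.68 ± 1.46, the highest of the 3 classes. AP sites dipped over CpG-rich starts, from 1.65 at 200 to 100 bp upstream to 1.36 at 100 to 200 bp downstream, whereas over CpG-poor starts they rose from 1.86 to 2.47 over the same steps. The AP strand ratios were farther from 0 at CpG-rich starts, with an excess on the other strand downstream (-0.31 ± 0.16, 0 of 12 libraries above 0) and on the gene strand upstream (0.22 ± 0.11, 12 of 12). At CpG-poor starts the other strand had the excess on both sides, with -0.06 ± 0.07 downstream (2 of 12) and -0.10 ± 0.12 upstream (1 of 12). These class differences were not tested. The SSB excess on the gene strand downstream was present in both classes, 0.21 ± 0.09 at CpG-rich and 0.29 ± 0.09 at CpG-poor starts, in 12 of 12 libraries each.

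**Figure D4:**
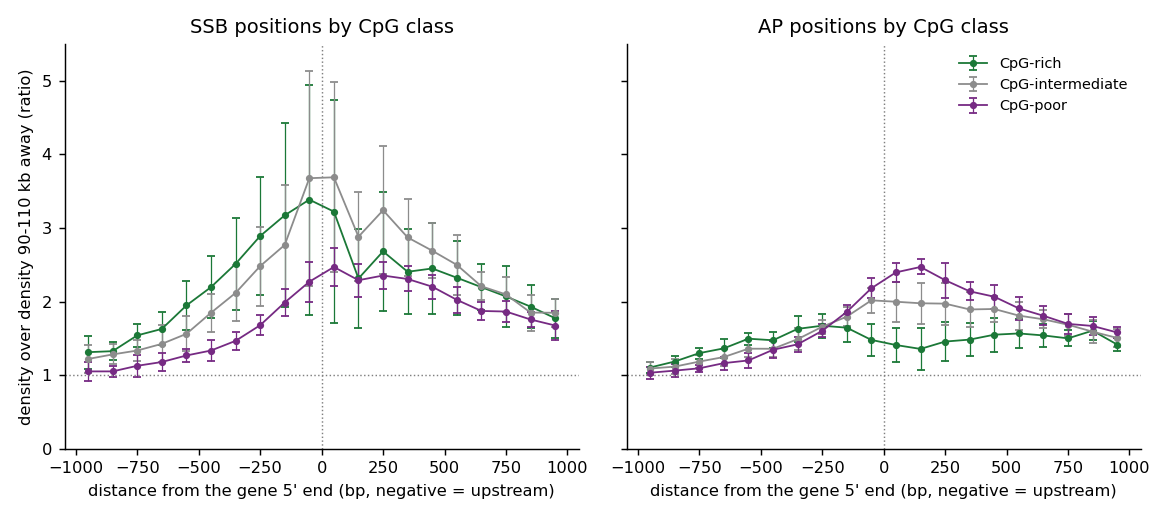
Density of SSB and AP positions in 100 bp steps around the 5′ end (x axis, bp), relative to 90 to 110 kb away (y axis, ratio), for CpG-rich, intermediate and CpG-poor starts; points are means and bars SDs over 12 libraries. AP sites dip to 1.36 just inside CpG-rich genes and rise to 2.47 in CpG-poor ones, while the SSB peak is higher at CpG-rich and intermediate starts.

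A TATA box was looked for as the letters TATAAA on the gene strand, wholly within 45 to 16 bases before the promoter table's start. It was present in 467 of the 14217 promoters (3.28%). SSB enrichment of windows with it was 1.81 ± 0.120 and that of windows without it 2.10 ± 0.350, and AP enrichment was 1.76 ± 0.0726 and 1.59 ± 0.0798 (SD, n = 12). Most of them, 367, were CpG-poor, and among CpG-poor starts SSB enrichment was 1.60 ± 0.133 with the letters and 1.77 ± 0.0686 without, and AP enrichment was 1.74 ± 0.0826 and 1.70 ± 0.0484. These differences were not tested, and a match of letters is no proof of a TATA box in use.

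Groups of genes with known roles were then described over their windows. For each, the value is the enrichment over the list's windows in each library, given as the median over 12 libraries, beside means of 2.01 (SSB) and 1.55 (AP) for all windows. Counts of positions in short lists are small, no test was made, and nothing particular to a list is claimed. Genes used by most cells come first. Over 11 housekeeping genes the SSB median was 2.72 (1.03 to 3.96 over the libraries), above that of all windows in 11 of 12 libraries. Canx, which encodes the chaperone calnexin, held 30 SSB and 21 AP positions, and Eef1a1, which encodes translation elongation factor 1 alpha, held 31 and 20. Over 58 genes of cytosolic ribosomal proteins the SSB median was 2.29 (10 of 12 libraries above all windows) and the AP median 1.68. Their SSB enrichment, pooled over the 2 libraries of a tissue, was 3.44 in bone marrow, 2.52 in liver, 2.35 in heart, 2.26 in brain, 1.86 in PBMCs and 1.42 in sperm, which put sperm and PBMCs at the low end as over all windows. Rps21 held 29 SSB and 24 AP positions, and so did Rpl7a, whose window is shared with Med22. Over 31 genes of complex I, the first complex of the respiratory chain, the SSB median was 2.06 (9 of 12) and the AP median 1.87 (10 of 12). Ndufb1, which shares its window with Cpsf2, held 22 and 24 positions, and Ndufa13, which shares its window with Tssk6, 18 and 27. Over 31 proteasome genes the medians were 1.97 (5 of 12) and 1.42 (4 of 12), with Psmb3, next to Pcgf2, at 26 and 29 positions and Psmc5, next to Ftsj3, at 24 and 24.

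Larger families and clusters are given next. Over 324 Zfp genes, most of which encode zinc finger proteins, the SSB median was 2.38, above all windows in 12 of 12 libraries, and the AP median 1.71 (11 of 12). In PPM per window, the unit defined with the receptor genes below, Zfp genes held 1.95 for SSBs and 1.34 for AP sites. All windows held 2.04 and 1.50, so the high Zfp ratios come with a low density in the DNA used for scaling. Zfp687 held 33 SSB and 20 AP positions and Zfp747 held 30 and 22. Over 66 core histone genes the SSB median was 2.78 (9 of 12) and the AP median 2.35 (12 of 12). H2ac20 and H2ac21, which encode H2A histones and share their windows, held 25 and 34 SSB positions and 29 and 30 AP positions. These histone genes lie in clusters of near-identical copies, so the placing of their reads is uncertain. Over 22 Hox genes, which set position along the body axis, the medians were 2.07 (7 of 12) and 1.73 (9 of 12), with SSB values from 1.40 to 4.80 over the libraries, and Hoxa10 held 19 SSB and 34 AP positions and Hoxa7 20 and 21. Over 36 keratin genes, which are mostly silent outside epithelia and hair, the SSB median was 1.35, above all windows in 0 of 12 libraries, and the AP median 1.48 (6 of 12). Krt71 held 10 SSB and 34 AP positions and Krt76 12 and 29.

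Chemosensory receptor genes, which are used in the nose, had high ratios and low numbers of positions. Over 934 olfactory receptor genes the SSB median was 2.36 (11 of 12) and the AP median 2.44 (12 of 12). Per window they held 1.11 SSB and 1.11 AP positions per 1000000 positions of the library (PPM), against 2.04 and 1.50 over all windows, so their high ratio comes with a low density 90 to 110 kb away. The 320 vomeronasal receptor genes had medians of 2.21 (8 of 12) and 2.55 (12 of 12) at 0.614 and 0.738 PPM per window. Their promoters are poor in G and C, with a median of 35.0% for olfactory and 36.7% for vomeronasal receptors. Olfr12 held 23 SSB and 29 AP positions, Olfr455 16 and 28, Vmn1r40 11 and 19, and Vmn2r29 19 and 10. These families hold close copies, and their reads may be placed on the wrong member.

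Lists of genes known for a single tissue were small, with 10 to 13 windows. The SSB medians were 1.61 for brain genes, 1.45 for heart muscle genes, 1.73 for liver genes, 1.77 for blood cell genes and 1.45 for sperm genes, each below the 2.01 of all windows. In SSB PPM per window the same lists held 1.77, 2.00, 1.89, 1.96 and 1.69, against 2.04 over all windows, so on that scale several were close to it. In their own tissue, pooled SSB enrichment was 2.21 for brain genes in brain (23 positions), 1.65 for heart muscle genes in heart (47 positions), 2.63 for liver genes in liver (32 positions) and 1.62 for sperm genes in sperm (14 positions). For blood cell genes it was 1.79 in bone marrow (18 positions) and 2.34 in PBMCs (15 positions), and brain had 2.73 (31 positions). Brain and liver genes had their highest value in their own tissue among the 6, and heart muscle genes too on this ratio, but not in PPM per window, where bone marrow had 2.66 and heart 2.43. Blood cell and sperm genes were not highest in theirs. With so few positions these orders were not tested. Among their members, Gad1, which makes the transmitter GABA, held 12 SSB and 21 AP positions, and Syt1, the calcium sensor of synaptic vesicles, 18 and 19. Myl7 and Myh6, atrial light chain and alpha heavy chain of cardiac myosin, held 25 and 13 SSB and 26 and 28 AP positions. Hpx (hemopexin) and Pck1 (a gluconeogenic enzyme) held 16 and 12 SSB and 26 and 24 AP positions. S100a8 and Camp, of neutrophil granulocytes, held 9 and 14 SSB and 20 and 23 AP positions. Spem1 and Tssk6, of late spermatids, held 12 and 16 SSB and 25 and 26 AP positions.

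**Figure D5:**
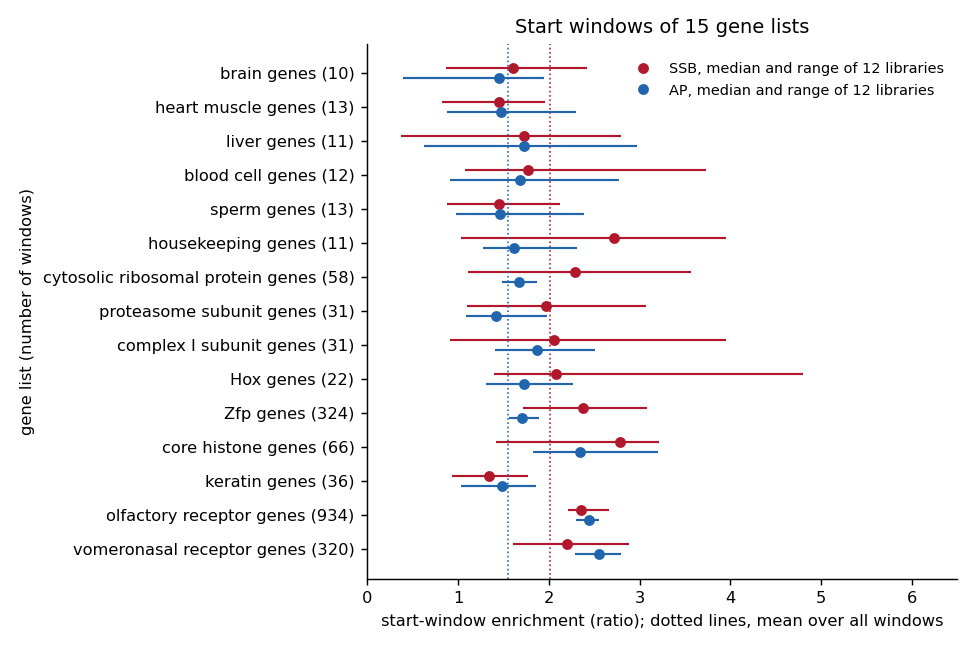
Enrichment of SSB and AP positions over the start windows of 15 gene lists (y axis), as a ratio to 90 to 110 kb away (x axis); each symbol is the median of 12 libraries, with bars from the lowest to the highest library, and dotted lines mark the means of all windows, 2.01 (SSB) and 1.55 (AP). Housekeeping and core histone genes have SSB medians of 2.72 and 2.78, keratin genes 1.35, and the receptor families have the highest AP medians at 2.44 and 2.55.

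Single windows were compared with edgeR's quasi-likelihood test over all windows with enough positions. Across tissues 0 of 15052 windows passed for SSBs and 0 of 15679 for AP sites at a Benjamini-Hochberg adjusted p of 0.05 (0% called in each), with 331 (2.2%) and 195 (1.24%) at an unadjusted p under 0.05, and DESeq2 also called 0. In simulated counts with the same library totals, windows drawn from the better covered ones were raised in bone marrow only. The test found 16% of SSB windows and 72% of AP windows raised 8-fold, and 1% and 3% of those raised 4-fold. The simulated spread between libraries was set somewhat below that fitted to the data. In that setting 4-fold increases of single windows were thus mostly not detectable in either assay, nor 8-fold ones for SSBs, while 8-fold ones for AP sites mostly were. Thinner windows, decreases and changes in other tissues were not simulated, so their detection is not known. The tissue difference of SSBs described above is therefore one of the sum over windows, not of windows that could be named.

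Between SSBs and AP sites 2 of 15786 windows passed (0.0127% called), both higher in SSBs, and 823 (5.21%) had an unadjusted p under 0.05. In the Rab5b window, at the start of the gene of an early endosome GTPase (chr10, position 128696284, minus strand), there were 59 SSB positions, present in 12 of 12 libraries, and 9 AP positions, present in 6 of 12. The SSB values in PPM had a lowest, median and highest of 3.27, 8.72 and 27.7, and the AP values of 0, 0.519 and 4.11, so the groups overlapped at their edges. The log2 difference fitted with TMM factors was 2.50 ± 0.52 (SE worked back from the test statistic, edgeR, Benjamini-Hochberg adjusted p = 0.0267). The plain ratio of pooled PPM uses library size alone, so it is on another scale. It was 10.5, with an exact 95% interval of 5.16 to 24.0 that covers counting error only. In the Phf23 window, at the start of a PHD finger protein gene (chr11, position 69995766, plus strand), there were 29 SSB positions in 10 of 12 libraries and 1 AP position (edgeR, Benjamini-Hochberg adjusted p = 0.0267). The SSB values there were 0, 5.55 and 16.6 PPM as lowest, median and highest, and AP values 0, 0 and 1.10, with a ratio of 46.4 (7.69 to 1894). Of its SSB positions 21 were on the gene strand and 8 on the other.

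These 2 calls were not stable. Without the DNA sample as a block the number of calls was also 2, but DESeq2 called 0, and leaving out single DNA samples gave 0 to 2, with 11 of 12 leaving fewer than 2. The choice of scaling mattered more. With TMM factors, which ran from 0.647 to 2.00, the median log2 difference of SSB minus AP over all windows was -0.12, and with library size alone it was 0.36, so the sign of the median depended on the scaling. With library size alone 19 windows passed (0.12% called), all higher in SSBs. They were chosen after their values were seen, and besides Rab5b and Phf23 they include the shared window of Rprd1b and Tti1 (32 SSB and 9 AP positions), Hspa5, which encodes the chaperone BiP (35 and 10), Gsk3b, a kinase of the Wnt and insulin pathways (29 and 7), Orc6, a subunit of the origin recognition complex (35 and 15), Txnrd2, the mitochondrial thioredoxin reductase (28 and 8), Cox19, a factor in cytochrome oxidase assembly (25 and 4), and Sirt2, a deacetylase whose window is shared with Nfkbib (29 and 7).

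Of the 5 windows with most PPM in each assay, 3 were the same, those of Hjurp, Duxf3 and Ugt1a1. Hjurp, which encodes the chaperone that loads the centromeric histone, came first for SSBs (chr1, start at 88277644, minus strand) with 100 positions, and its SSB values in PPM were 3.59, 17.5 and 38.1 as lowest, median and highest, and it held 116 AP positions at 13.2 ± 5.40 PPM (SD, n = 12). Duxf3, a double homeobox gene (chr10, start at 58233089, minus strand), held 91 SSB positions, at 0, 16.8 and 30.4 PPM, and 132 AP positions at 14.8 ± 4.92. It belongs to a tandem array of near-identical copies, so the number of copies behind 1 annotated start is uncertain. Relative to their own DNA 90 to 110 kb away, these windows stood at 21.7 and 34.3 for SSBs and at 19.8 and 36.2 for AP sites. Rab5b was next for SSBs, as given above. Mroh2a (chr1, start at 88226991) held 48 SSB and 71 AP positions and Ugt1a1, the bilirubin-conjugating enzyme (chr1, start at 88211959), 47 and 122. Sp110, which encodes a nuclear body protein (chr1, start at 85610850) held 39 SSB and 83 AP positions and Trpm8, the cold-sensing channel (chr1, start at 88306735), 34 and 76, which completed the 5 highest for AP sites with Duxf3, Ugt1a1 and Hjurp. Of the 7 windows 5 lie on chromosome 1 within 2.70 Mb, and 4 of those within 94.8 kb, so they are neighbours rather than separate cases. The treatment of reads that map to several places is not given in the sources used here.

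Few nucleotides in start windows were hit in more than 1 library. Of 172475 SSB nucleotides in windows 1370 (0.794%) recurred in 2 or more of the 12 libraries, against 0.516% on the autosomes outside the windows, and of 201251 AP nucleotides 2784 (1.38%), against 1.47%. These shares were not adjusted for the higher density of positions in windows, and their differences were not tested. In 3 or more libraries there were 30 SSB (0.0174%) and 55 AP nucleotides (0.0273%), against 0.0178% and 0.0475% outside the windows. Hits in 6 or more libraries numbered 4 and 0 in windows. Outside there were 66 of 5215005 SSB and 131 of 8335197 AP nucleotides, up to all 12 libraries, so such recurrence was not particular to start windows. In 4 or more libraries there were 8 nucleotides, chosen after their values were seen, 5 for SSBs and 3 for AP sites, and those 5 were hit in 0 AP libraries. The most frequent, on chr10 at position 81182496 at -491 bp from the 5′ end of Dapk3 (a kinase of cell death and muscle contraction), was hit in 9 SSB libraries and its neighbour at 81182495 in 7. A nucleotide on chr2 at 158028045, 430 bp upstream of Rprd1b in the window shared with Tti1, was hit in 7 SSB libraries and 0 AP libraries. On chr19 at 53140249, 194 bp upstream of Add3 (adducin 3, of the membrane skeleton), the strand opposite to the gene was hit in 6 SSB libraries, and it reads attgcCaaaat there, with the recorded base in capitals (chr19:53140244-53140254, minus strand). A nucleotide 800 bp into Taco1, chr11 at 106066857, was hit in 5. The 3 of AP sites, in 4 libraries each, lay in the windows of Sp110, A530032D15Rik and Chia1.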

How the data were processed

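SSBs and AP sites were profiled in 24 libraries (6 tissues, 2 animals, 24 months of age). The authors deposited, for each library, a list of single nucleotides, each with its strand and a raw count, made with their own code without normalization or pooling. The aligner, filters and handling of reads with several matches are not given in the sources used here. The submitters' processing notes list mm10, GRCm38 and RSEM 1.2.28, without a role. Each position was counted once per window whatever its raw count, and again in any overlapping window.

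The 5′ end and strand came from RefSeq tables (GRCm38.p6), and promoter sequences, 250 bases before to 50 after the table's start, were used where that start lay within 500 bp of the 5′ end (14217 windows). Enrichment was the density within 1 kb divided by that 90 to 110 kb away, both strands and both sides together. SSB and AP values of a DNA sample, which the labels pair, were compared with two-sided exact sign-flip tests (4096 patterns). Tissues were compared by their share of variance, permuted over all 10395 pairings of 12 libraries. Single windows with a position in at least 20% of libraries were tested with edgeR 4.0.16 (quasi-likelihood, TMM, R 4.3.3), across tissues and between assays with the DNA sample as a block, with Benjamini-Hochberg adjustment at 0.05. DESeq2 1.42.0 was an alternative. Other steps used Python 3.11.15, NumPy 2.4.6, pandas 2.3.3 and matplotlib 3.10.9. The counting and tests were tested on simulated data.

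Windows named are the 5 of highest mean positions per 1000000 positions of the library (PPM) in each assay, up to 5 of smallest adjusted p across tissues (there were none), up to 5 of largest difference between assays in each direction (there were 2), and the 2 members with most positions in each gene list, with any gene that shares the window. The windows, gene lists and CpG classes were chosen with earlier results of these data known. Depth limits the precision of single windows, and intervals cover counting error only.

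Replicate numbers may mark the same animal across tissues, since the labels name 2 mice for all tissues, but they do not state it. Deviations of windows from the tissue mean, compared between tissues by replicate number, correlated between -0.0167 and 0.0197, and between SSB and AP of the same DNA sample between -0.0114 and 0.00734. Alternatives were summed counts, thinning to 225011 positions, lone starts, genes of at least 10 kb, other scalings, window and class limits, tissues or replicates left out, the block, and other filters and normalizations for windows. The starts of the promoter table were an alternative chosen after seeing the data. Other ages and RNA profiles were not analysed here.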

Additional observations from a re-analysis of the deposited data

Results flagged for a closer look

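The difference between SSB and AP enrichment was not the same in all tissues. Tissue accounted for 96.0% of its variance over the 12 DNA samples (exact permutation test, p = 0.00279), and it was large in bone marrow, heart, liver and brain and near 0.1 on the log2 scale in PBMCs and sperm, as given above.

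The windows of 817 protein-coding genes of chromosome X, which are outside the autosomal windows, held a signal above the DNA 90 to 110 kb from them. SSB enrichment was 2.90 ± 0.535 (SD, n = 12; 2.15 to 4.05) and AP enrichment 2.15 ± 0.146 (1.80 to 2.36), against 2.01 and 1.55 on the autosomes. This difference was not tested. The far density of X was not set against the autosomal mean. A higher density at X starts and a lower one in their far DNA can therefore not be told apart. The samples are male, so X is present once per diploid cell, and only part of sperm carry it. The ratio is taken within X and does not change with the number of X chromosomes.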

How the results depend on the processing

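Of 424 alternative values over 21 results, 393 were counted as unchanged. For exact tests that meant the same direction and side of the threshold, and without a test a move of less than 1 SD. For results that count called windows it meant an equal or close number of calls. The 393 include the tissue calls of single windows, 0 in every run, where most simulated 4-fold increases were missed. SSB enrichment was 2.38 with 500 bp on each side and 2.49 against the autosomal mean, and AP enrichment was 1.70 and 1.83. The starts of the promoter table, chosen after seeing the data, gave 2.10 and 1.59. Leaving out single libraries gave 1.96 to 2.05 for SSBs and 1.54 to 1.56 for AP sites. The SSB contrast of CpG-rich with CpG-poor starts was 0.77 against the autosomal mean. The AP contrast of CpG-rich with CpG-poor starts was -0.39 with 500 bp on each side and reversed to 0.20 against the autosomal mean, where far DNA of the classes differs. The G contrast, not past the threshold, turned to 0.0056 without sperm (exact sign-flip test, p = 0.906); the cause was not tested. The AP strand ratio upstream was 0.044 with lone starts (exact sign-flip test, p = 0.0977) and 0.060 without bone marrow (exact sign-flip test, p = 0.0566). Leaving out single libraries gave 0.034 to 0.064. The cause was not tested.

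Windows called between SSBs and AP sites numbered 19 with library size alone, 0 with DESeq2, 0 with a position required in 80% of libraries, 1 without sperm, 0 without bone marrow, 3 without a filter and 0 to 2 on leaving out single DNA samples. Tissue calls were 0 in every alternative run.

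With the replicate block, tissue accounted for 97.7% of the variance of SSB enrichment (exact permutation test within replicate numbers, p = 0.00417), 51.9% of AP enrichment (exact permutation test, p = 0.457) and 96.8% of their difference (exact permutation test, p = 0.00694). It changed no call. Without the pairing of assays by DNA sample the calls for the enrichment and for A, C and T stood, G was again not called, and the number of windows called was again 2 (permutation test over 24 libraries, p = 3e-05 for the enrichment, p = 1e-05 for A, C and T, the smallest the draws can give, and p = 0.388 for G).

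With a median of 11 to 13 positions per window over 12 libraries, single windows allow only large differences to be seen.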

Other observations

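The enrichment of starts differed with the G plus C content of the promoter, and its course depended on the scaling. In 1484 windows below 40% G plus C, SSB enrichment was 2.06 ± 0.106 and AP enrichment 2.15 ± 0.0600 (SD, n = 12), over far DNA that held 0.528 and 0.522 times the autosomal mean. From 40 to 45% they were 1.66 ± 0.0792 and 1.66 ± 0.0510. SSB enrichment then rose to 2.38 ± 0.563 from 65 to 70%, and AP enrichment was 1.54 ± 0.142 there. In 1687 windows of 70% or more they were 2.02 ± 0.426 and 1.31 ± 0.117. Against the autosomal mean SSBs were higher at more G plus C up to 65 to 70%, from 1.09 to 3.34. AP sites were higher up to 55 to 60%, from 1.12 to 2.13. At 70% or more the values were 2.82 for SSBs and 1.75 for AP sites. The SD of SSB enrichment over libraries was 0.0792 from 40 to 45% and 0.563 from 65 to 70%.

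The 2240 windows with no promoter sequence within 500 bp of the annotated 5′ end had lower enrichment of both lesions, 1.57 ± 0.152 for SSBs and 1.27 ± 0.0602 for AP sites, and their SSB strand ratio downstream was 0.01 ± 0.11, above 0 in 7 of 12 libraries. Genes under 10 kb and genes of at least 10 kb had SSB enrichments of 1.98 ± 0.241 and 2.03 ± 0.353, and AP enrichments of 1.67 ± 0.0610 and 1.49 ± 0.0816. These differences were not tested.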
